A study of Oryza sativa Japonica Group with 4 samples.

Results

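Plants take chlorophyll apart through a fixed chain of chloroplast enzymes when leaves age or are stressed. Chlorophyll b is first reduced towards chlorophyll a, the magnesium is then taken out, the phytol tail is cut off, the ring is opened, and the red product is reduced to a colourless one that can be stored in the vacuole. The 5 genes described here cover that chain in rice: NYC1 (a chlorophyll b reductase), SGR (the stay-green protein, which removes magnesium from chlorophyll a), NYC3 (the rice pheophytinase, which removes phytol), OsPAO (pheophorbide a oxygenase, which opens the ring) and OsRCCR1 (red chlorophyll catabolite reductase). Loss of NYC1, NYC3 or SGR keeps rice leaves green during senescence. The genes were chosen by identifier from the 33744 genes of the deposited expression table, with their values in the comparison below already known. The difference between the lines is therefore given for them as a description, without a test.

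RNA-seq was done on leaves of seedlings of Japonica rice (Oryza sativa), 14 days old, after 6 h of drought. OE13, called drought resistant in the labels, and OE13-2KR/oswox13-1, called drought sensitive, were each represented by 2 libraries. All 4 libraries came from droughted plants, and no unstressed or wild-type group was analysed here. By its name the second line differs from OE13 both in the 2KR form and in the oswox13-1 background, and these cannot be told apart. Which promoter drives the transgenes, how many independent lines there were and whether plants were pooled is not stated. The labels do not say that libraries of a line came from separate plants, so the spread between them may be technical. In bulk leaf RNA, fewer cells of a type and less RNA per cell cannot be told apart.

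Levels are FPKM, fragments scaled to gene length and library total, and they summed to between 931335 and 941593 per library. Read depth is unknown. Leaf identity was checked with genes described as small subunits of Rubisco, the carbon-fixing enzyme: they summed to 11812 and 6618 FPKM for OE13-2KR/oswox13-1, against 19972 and 10489 for OE13. These sums overlapped between the lines, and replicate 2 was the lower in both. Opposite-strand genes share 57.0% of the span of Os12g0274700 and 68.2% of that of RbcS3, the most abundant of these genes. Antisense reads could therefore touch the sums. The median gap from replicate 1 to replicate 2 was -0.84 for OE13-2KR/oswox13-1 and -0.97 for OE13 on the log2 scale. The lowest library was OE13-2KR/oswox13-1 replicate 2, which also stood apart for chlorophyll synthesis and light-harvesting genes. Without it the differences of NYC1, SGR, NYC3, OsPAO and OsRCCR1 described below were 0.76, 1.40, 1.29, 1.31 and 1.76 on the log2 scale. The single root-typical gene found, NAR2.1, a partner of root nitrate transporters, stayed at or below 0.193 FPKM in every library. The locus of OsWOX13 (Os01g0818400, listed as OsWOX8, matched from general knowledge) read 27.1 and 49.9 FPKM for OE13-2KR/oswox13-1, against 22.02 and 75.6 for OE13, so the lines overlapped at it. limma's test took in 20174 genes, those averaging 1 FPKM or more, and 1 gene, outside the chlorophyll lists, passed a Benjamini-Hochberg adjusted p of 0.05, that is 0.00496% of those tested.

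All 5 breakdown genes stood higher in OE13-2KR/oswox13-1, the line called drought sensitive. For each of them both libraries of that line lay above both libraries of OE13. The same held for 23.4% of all genes tested, and since these values chose the genes, nothing is read from the count. Their summed level came to 1459 and 1517 FPKM for OE13-2KR/oswox13-1, against 698 and 799 FPKM for OE13. All 5 passed the filter on low values. Differences below are OE13-2KR/oswox13-1 minus OE13 on the log2(FPKM + 1) scale with limma's standard error. A difference of at least 1 on this scale was reached by 4 of the 5 genes and by 1.99% of all genes tested. Since the same values chose the genes, nothing is read from this count either.

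**Figure D1:**
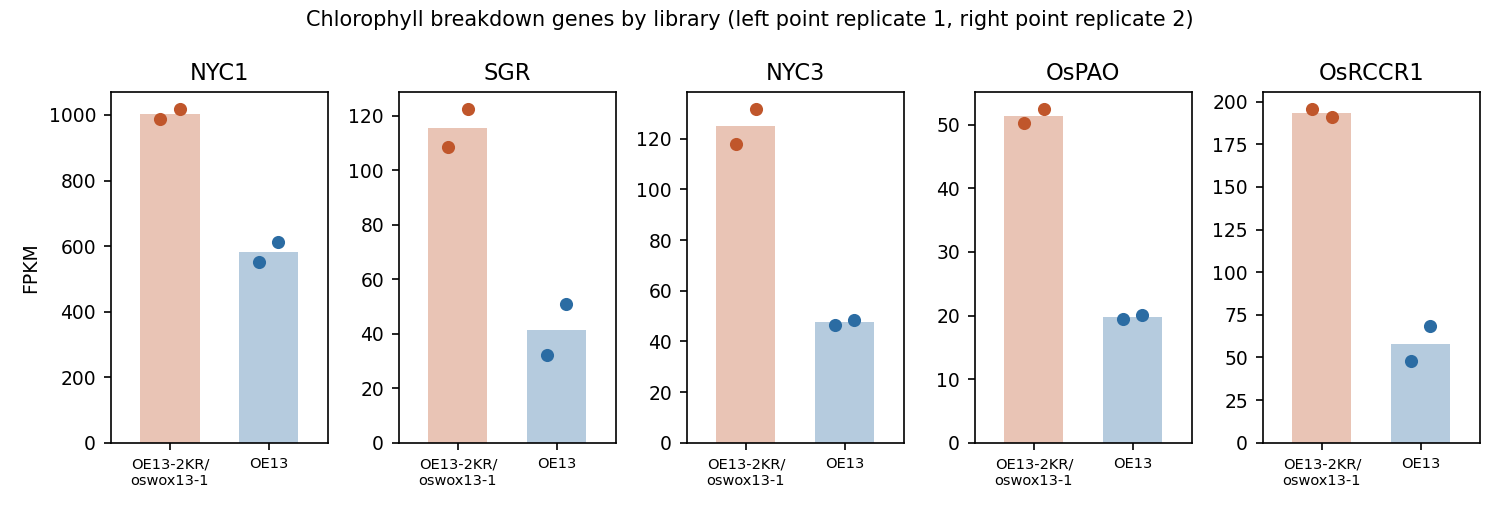
Level of each of the 5 chlorophyll breakdown genes in FPKM (y axis, linear, a scale of its own per gene) in the 2 lines (x axis). Points are single libraries and bars are the mean of 2 libraries; both OE13-2KR/oswox13-1 points lie above both OE13 points for every gene, by the narrowest relative margin for NYC1.

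The chain opens with NYC1 (Os01g0227100, chromosome 1, 7024297 to 7030591, plus strand), which turns chlorophyll b into a form that can enter the pathway and so also frees the light-harvesting antenna for breakdown. Libraries of OE13-2KR/oswox13-1 held NYC1 at 986 and 1019 FPKM, those of OE13 at 552 and 611 FPKM. It was the most abundant of the 5 and ranked 121 of 20174 genes by mean level. Its difference was the smallest of the 5, 0.79 (SE 0.20), with means of 1003 ± 23.1 and 581 ± 41.8 FPKM (SD, n = 2 each). The lowest OE13-2KR/oswox13-1 library was 1.61 times the highest OE13 library.

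SGR (Os09g0532000, chromosome 9, 20868846 to 20871077, minus strand) commits chlorophyll a to breakdown. Its transcript read 109 and 123 FPKM for OE13-2KR/oswox13-1, against 32.3 and 50.8 FPKM for OE13. The OE13 libraries were 1.57-fold apart, the widest gap between replicates among the 5 genes, yet the lowest OE13-2KR/oswox13-1 value was still 2.14 times the highest of OE13. The means were 116 ± 9.88 and 41.5 ± 13.1 FPKM (SD, n = 2 each), a difference of 1.49 (SE 0.26). Leaving out OE13 replicate 1 put the difference at 1.17, and leaving out OE13 replicate 2 put it at 1.80.

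NYC3 (Os06g0354700, chromosome 6, 14527016 to 14531805, plus strand) acts next and strips phytol from the magnesium-free pigment. Libraries of OE13-2KR/oswox13-1 held it at 118 and 132 FPKM, those of OE13 at 46.6 and 48.5 FPKM. The OE13 pair was nearly level, and both values lay far below the other line. The difference was 1.37 (SE 0.17), on means of 125 ± 9.74 and 47.5 ± 1.34 FPKM (SD, n = 2 each).

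OsPAO (Os03g0146400, chromosome 3, 2576609 to 2580404, plus strand) opens the porphyrin ring, the step at which the green colour is lost. It was the least abundant of the 5, with 50.3 and 52.5 FPKM for OE13-2KR/oswox13-1, against 19.4 and 20.02 FPKM for OE13. Its replicates lay 1.04-fold apart in OE13-2KR/oswox13-1 and 1.03-fold apart in OE13, the closest OE13 pair of the 5 genes, against a 2.51-fold gap between the nearest libraries of the 2 lines. Its difference was 1.34 (SE 0.17), on means of 51.4 ± 1.59 and 19.7 ± 0.449 FPKM (SD, n = 2 each).

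OsRCCR1 (Os10g0389200, chromosome 10, 12886331 to 12888289, minus strand) reduces the red, light-sensitive product of OsPAO. Its transcript read 196 and 191 FPKM for OE13-2KR/oswox13-1, against 47.7 and 68.7 FPKM for OE13. This was the largest difference of the 5, 1.74 (SE 0.23), and the widest gap between the lines, with the lowest OE13-2KR/oswox13-1 library at 2.79 times the highest OE13 library. The means were 194 ± 3.24 and 58.2 ± 14.8 FPKM (SD, n = 2 each). Leaving out OE13 replicate 1 gave 1.48 and leaving out OE13 replicate 2 gave 2.00.

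By level the order in OE13-2KR/oswox13-1 was NYC1, OsRCCR1, NYC3, SGR and OsPAO, and the libraries of NYC3 and SGR overlapped. In OE13, where NYC1 was again highest and OsPAO lowest, the libraries of SGR, NYC3 and OsRCCR1 all overlapped. NYC1 made up 67.6% and 67.2% of the summed FPKM of the 5 genes for OE13-2KR/oswox13-1, against 79.1% and 76.5% for OE13; the 4 later genes stood further apart between the lines than NYC1 did.

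The profiles of the 5 genes over the 4 libraries gave a close pair, a looser pair and NYC1. Likeness was measured as the Euclidean distance between log2(FPKM + 1) profiles, each centred on its own mean. NYC3 and OsPAO lay 0.0764 apart, and of the genes tested none lay nearer to either. OsRCCR1 and SGR lay 0.305 apart, with 1 gene nearer to OsRCCR1 and 10 genes nearer to SGR. From NYC3, SGR lay 0.425 apart. NYC1 lay between 0.558 (OsPAO) and 0.990 (OsRCCR1) from the others. Nearer to NYC1 than OsPAO were 3018 genes, and nearer than OsRCCR1 were 10414. SGR and OsRCCR1 differed between the OE13 libraries, with replicate 1 the lower for both, whereas NYC3 and OsPAO were nearly level within OE13. These are 4 points per gene, so the distances describe the libraries only. They also contain the difference between the lines, whose values chose the 5 genes, so nothing is read from the grouping.

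Named genes outside the 5 with the nearest profiles were found in the same way, 2 for each gene. Nearest to NYC1 were MIT, a mitochondrial carrier gene, at 72.3 and 73.2 FPKM for OE13-2KR/oswox13-1, against 39.04 and 42.6 FPKM for OE13 (distance 0.0409), and SAPK6, an osmotic stress kinase gene (distance 0.0759). OsNPC3, described as similar to a phospholipase C, and OsOAT, the ornithine aminotransferase gene, came nearest to SGR (distances 0.115 and 0.174). OsNPC3 was low, at 3.82 and 4.86 FPKM against 0.416 and 1.33 FPKM, so its distances depend on the 1 FPKM added before the log. OsOAT stood at 131 and 144 FPKM against 44.8 and 65.4 FPKM, and 27.8% of its span is shared with an opposite-strand gene. OsWRKY97, a WRKY transcription factor gene, was the nearest named gene to both NYC3 (0.125) and OsPAO (0.0804), at 18.5 and 19.2 FPKM against 7.11 and 6.74 FPKM. The second nearest were OsRCI2-5, a small membrane protein gene of the cold-inducible RCI2 family, for NYC3 (0.130) and OsVQ37, a VQ domain gene, for OsPAO (0.152). OsABI5-1, a bZIP transcription factor gene of abscisic acid signalling, came nearest to OsRCCR1 (0.323), at 100 and 72.5 FPKM against 19.2 and 31.0 FPKM, followed by OsNPC3 (0.327). A profile correlation of at least 0.95 over 4 libraries was common: between 4.63% and 6.20% of the genes tested reached it with any given one of the 5.

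The table also annotates what the 5 genes have in common. All 5 carry the gene ontology term for the chloroplast, 4 of 5 that for chlorophyll catabolism (SGR does not), and 3 of 5 are placed in the porphyrin and chlorophyll pathway (NYC1, SGR and OsRCCR1). They lie on 5 different chromosomes. None is overlapped by a listed gene on the other strand, so antisense reads of a listed gene do not touch their values. OsRCCR1 has relatives beside it on the same strand of chromosome 10: OsRCCR3, described as a truncated copy, ends 6035 bases from it and OsRCCR2 starts 2614 bases from it on the other side. Reads shared among these copies could be split between them by the counting, so the exact level of each is uncertain.

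The remaining genes of the breakdown list were mixed in direction. The list holds 11 further genes, of which 8 passed the filter on low values; 4 had a positive and 4 a negative difference, and their median was 0.13, where all genes tested had -0.08. With limma 0 of the 8 passed at an adjusted p of 0.05 (lowest 0.195). At an unadjusted p under 0.05, 1 was higher (OsRCCR2) and 1 lower (OsHCAR), where 8.00% of all genes tested were higher and 12.0% lower. Without OE13-2KR/oswox13-1 replicate 2 these counts were 0 and 0, without OE13 replicate 1 they were 2 and 0, and without OE13 replicate 2 they were 0 and 1.

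OsHCAR (Os04g0320100, chromosome 4, 14711428 to 14716700, plus strand) encodes 7-hydroxymethyl chlorophyll a reductase, which takes over the product of NYC1 and makes chlorophyll a from it. Its transcript read 199 and 131 FPKM for OE13-2KR/oswox13-1, against 281 and 246 FPKM for OE13. Both OE13-2KR/oswox13-1 libraries lay below both of OE13, opposite to NYC1, SGR and the later genes; 32.8% of all genes tested had this lower pattern. The difference was -0.70 (SE 0.26, limma adjusted p = 0.232) and it did not pass; without OE13-2KR/oswox13-1 replicate 2 it was -0.40. The ratio of NYC1 to OsHCAR in FPKM came to 4.96 and 7.80 for OE13-2KR/oswox13-1, against 1.96 and 2.48 for OE13. As the values of NYC1 chose it, nothing is read from this ratio.

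Relatives of NYC1, SGR and OsPAO differed less between the lines or lay the other way. NOL, the partner of NYC1 in chlorophyll b reduction (Os03g0654600, named so in the table although its description there speaks of a Myb-like domain), stood at 31.3 and 34.1 FPKM against 24.3 and 28.3 FPKM (difference 0.31, SE 0.18, limma adjusted p = 0.389), and its difference was 0.20 without OE13 replicate 1. A further gene with a stay-green domain, Os04g0692600, stood lower in OE13-2KR/oswox13-1 at 68.4 and 53.1 FPKM against 104 and 73.4 FPKM (-0.53, SE 0.25, limma adjusted p = 0.303). Leaving out OE13 replicate 1 put that difference at -0.28, and leaving out OE13-2KR/oswox13-1 replicate 2 put it at -0.35. The ratio of SGR to this relative came to 1.59 and 2.31 for OE13-2KR/oswox13-1, against 0.310 and 0.691 for OE13. SGR too was chosen by its values, so its ratio is a description only. Os03g0805600, described as similar to pheophorbide a oxygenase, was more abundant than OsPAO and overlapped between the lines, at 116 and 99.8 FPKM against 120 and 101 FPKM (-0.04, SE 0.19). The 3 other genes so described, Os03g0805700, Os03g0805900 and Os03g0806300, were listed at 0 in most libraries and at no more than 2.21 FPKM in any.

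Among the low relatives, OsRCCR2 stood at 2.84 and 4.03 FPKM against 1.49 and 0.889 FPKM (1.02, SE 0.27, limma adjusted p = 0.195) and OsRCCR3 at 2.63 and 2.72 FPKM against 1.43 and 1.95 FPKM (0.46, SE 0.23, limma adjusted p = 0.327). OsCHL, a chlorophyllase gene, stood at 2.12 and 1.84 FPKM against 1.33 and 0.117 FPKM (0.88, SE 0.39, limma adjusted p = 0.285), and this difference was 0.35 without OE13 replicate 2. OsNYC4, a thylakoid protein gene whose loss delays chlorophyll breakdown in rice, overlapped between the lines at 317 and 236 FPKM against 342 and 251 FPKM (-0.10, SE 0.26).

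**Figure D2:**
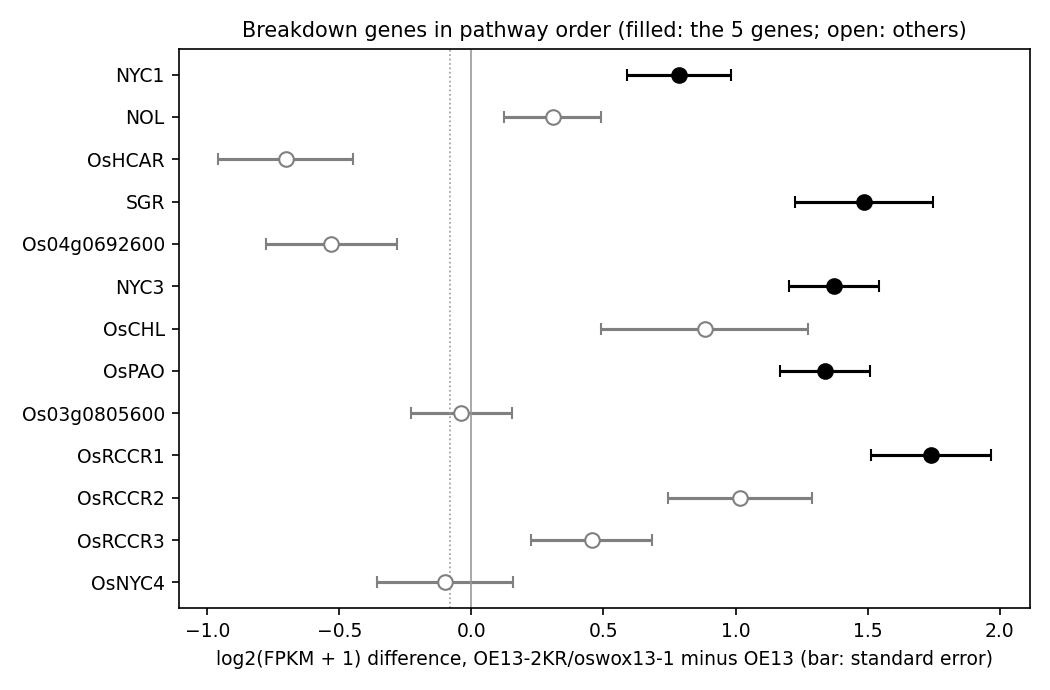
Difference between the lines on the log2(FPKM + 1) scale (x axis, bars are limma's standard error) for 13 breakdown genes placed from the first step (top) to the last, with OsNYC4 at the bottom. Filled points are the 5 genes described, from 0.79 to 1.74; open points are other genes of the list, among which OsHCAR lies at -0.70, and the dotted line is the median of all genes tested, -0.08.

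Chlorophyll synthesis genes, which build the pigment that the 5 genes take apart, were taken by words in the deposited description. Of 29 such genes 27 were tested, and 6 had a positive and 21 a negative difference, with a median of -0.38. With limma 0 of the 27 passed (lowest adjusted p 0.209), and at an unadjusted p under 0.05, 0 were higher and 4 lower, against 8.00% and 12.0% of all genes tested. The lower count was 13 without OE13-2KR/oswox13-1 replicate 1, 1 without its replicate 2, 0 without OE13 replicate 1 and 1 without OE13 replicate 2. OE13-2KR/oswox13-1 replicate 2 stood apart for these genes: 25 of the 27 were lower there than in replicate 1 of the line, with a median gap of -0.96 on the log2 scale. The median difference between the lines was 0.07 without OE13-2KR/oswox13-1 replicate 2, -0.76 without its replicate 1, -0.19 without OE13 replicate 1 and -0.63 without OE13 replicate 2. Of the 5 breakdown genes 1, OsRCCR1, was lower in that replicate, and their median gap was 0.06.

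Single synthesis genes showed the same library. FGL, a protochlorophyllide reductase gene, read 284 and 43.3 FPKM for OE13-2KR/oswox13-1, against 234 and 236 FPKM for OE13 (-1.07, SE 0.84), and leaving out OE13-2KR/oswox13-1 replicate 2 put its difference at 0.27, leaving out replicate 1 of that line at -2.42. CPO, a coproporphyrinogen oxidase gene, stood at 125 and 55.8 FPKM against 197 and 208 FPKM (-1.26, SE 0.39, limma adjusted p = 0.209), and its difference was -0.69 without that replicate. The largest positive differences among the more abundant genes were those of Os02g0116500 (0.44) and Os01g0631200 (0.30). The latter is described as similar to a siroheme uroporphyrinogen methyltransferase. Both stood at less than 33 FPKM, and neither passed. Without OE13-2KR/oswox13-1 replicate 2 the first was 0.24, and the second was 0.18 without replicate 1 of that line, 0.06 without OE13 replicate 1 and 0.54 without OE13 replicate 2.

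Light-harvesting genes encode the proteins that hold most chlorophyll b, the substrate of NYC1. Of 17 genes found by description 15 were tested. They include PSAH, described as a photosystem I reaction center subunit, so not all 15 are described as chlorophyll a/b binding. The difference was negative for 13 of the 15 and positive for 2, with a median of -0.59. With limma 0 passed (lowest adjusted p 0.240), and at an unadjusted p under 0.05, 0 were higher and 1 lower, against 8.00% and 12.0% of all genes tested. The lower count was 5 without OE13-2KR/oswox13-1 replicate 1, 0 without its replicate 2, 0 without OE13 replicate 1 and 3 without OE13 replicate 2. CAB2R read 1022 and 387 FPKM for OE13-2KR/oswox13-1, against 2018 and 882 FPKM for OE13. The lines overlapped at CAB2R, and replicate numbers were not taken to pair libraries. CP24 stood at 748 and 194 FPKM against 1055 and 604 FPKM, and 77.5% of it is shared with an opposite-strand gene. All 15 were lower in replicate 2 than in replicate 1 of OE13-2KR/oswox13-1, and 14 were lower in replicate 2 of OE13. Leaving out OE13-2KR/oswox13-1 replicate 2 gave a median of -0.05 and leaving out its replicate 1 gave -0.99; leaving out OE13 replicate 1 gave -0.24 and leaving out OE13 replicate 2 gave -0.98. CabE and Os02g0610700, the 2 positive genes, were at 0.08 and 0.04, and both were below 0 when OE13-2KR/oswox13-1 replicate 1 or OE13 replicate 2 was left out.

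**Figure D3:**
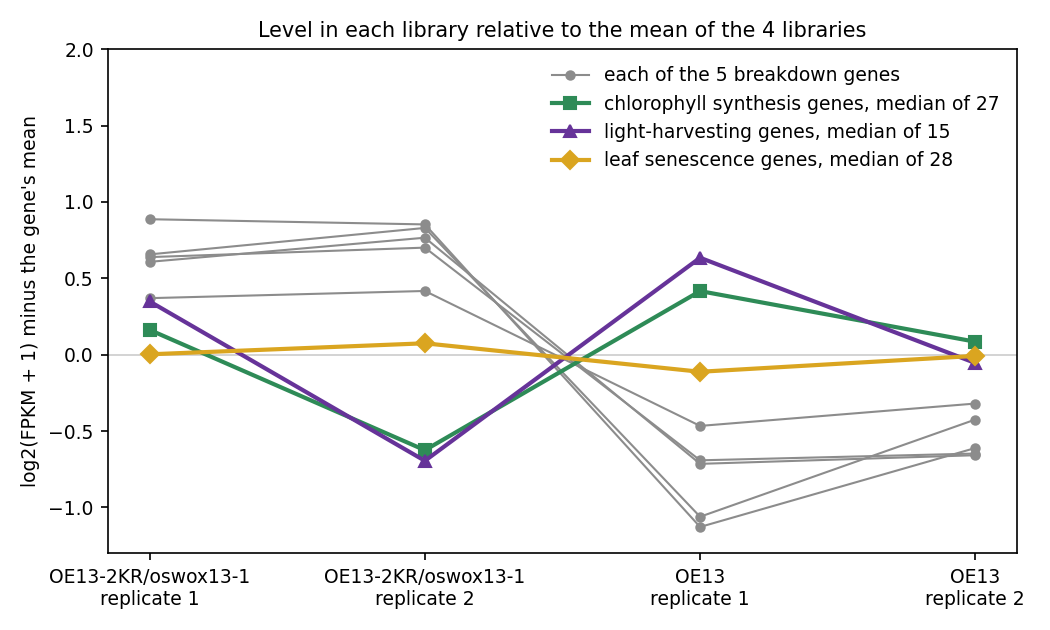
Level in each library on the log2(FPKM + 1) scale minus the mean of the 4 libraries (y axis) for the 5 breakdown genes singly (grey) and as the median of 27 chlorophyll synthesis, 15 light-harvesting and 28 leaf senescence genes; lines only join points. The 5 genes, chosen with these values known, lie higher in both OE13-2KR/oswox13-1 libraries, as do 23.4% of all genes tested. The lists were not chosen by a difference between the lines. The synthesis median is lowest, at -0.63, in OE13-2KR/oswox13-1 replicate 2 and at 0.16 in replicate 1 of the same line.

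Genes described by the word senescence, other than the 5, gave no common direction. They mix genes described as promoting senescence with genes described as negative regulators of it. Of 31 such genes 28 were tested, 16 with a positive and 12 with a negative difference, and the median was 0.15. With limma 0 passed (lowest adjusted p 0.187). At an unadjusted p under 0.05, 2 were higher (OsFBK12 and OsY37) and 2 lower (DOS and Os09g0433800), against 8.00% and 12.0% of all genes tested. With OE13-2KR/oswox13-1 replicate 1 left out 7 were higher, and the lower count was 1 with its replicate 2 and 4 with OE13 replicate 1 left out.

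Among senescence genes averaging at least 10 FPKM, DOS and OsBBS1 had the largest negative and NAC58 and OsY37 the largest positive differences. DOS, a CCCH zinc finger gene known as a brake on leaf senescence in rice, read 93.04 and 97.5 FPKM for OE13-2KR/oswox13-1, against 197 and 252 FPKM for OE13 (-1.22, SE 0.20, limma adjusted p = 0.187), with 64.04% of its span shared with an opposite-strand gene. NAC58 (Os03g0327800), a NAC activator described as promoting leaf senescence, stood at 234 and 219 FPKM against 42.3 and 166 FPKM (1.42, SE 0.62, limma adjusted p = 0.280). Its difference rested on 1 library and was 0.45 without OE13 replicate 1, the library in which each of the 5 breakdown genes was also lowest. OsY37, another NAC gene tied to senescence, stood at 20.6 and 32.4 FPKM against 12.0 and 11.8 FPKM (1.06, SE 0.26, limma adjusted p = 0.194). OsBBS1, a receptor-like kinase gene, overlapped between the lines at 11.5 and 6.47 FPKM against 8.25 and 23.1 FPKM, and its difference of -0.63 was 0.07 without OE13 replicate 2.

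The difference for the 5 genes was recomputed under 7 other settings that can move it: another pseudocount, a pair of rescalings and each library left out in turn. It lay between 0.71 and 0.87 for NYC1, 1.17 and 1.80 for SGR, 1.29 and 1.46 for NYC3, 1.31 and 1.42 for OsPAO and 1.48 and 2.00 for OsRCCR1. None of the 7 turned a direction. Since the lines did not overlap at these genes, leaving out 1 library or changing the pseudocount could not turn it. Rescaling by the median ratio, with factors from 0.948 to 1.035, was too slight to do so. The ranges show only how far the size of the difference moved. Quantile normalisation moved the median of all genes tested from -0.08 to 0.03, while NYC1 went from 0.79 to 0.73, SGR from 1.49 to 1.47, NYC3 from 1.37 to 1.34 and OsRCCR1 from 1.74 to 1.72, and OsPAO from 1.34 to 1.39.

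**Figure D4:**
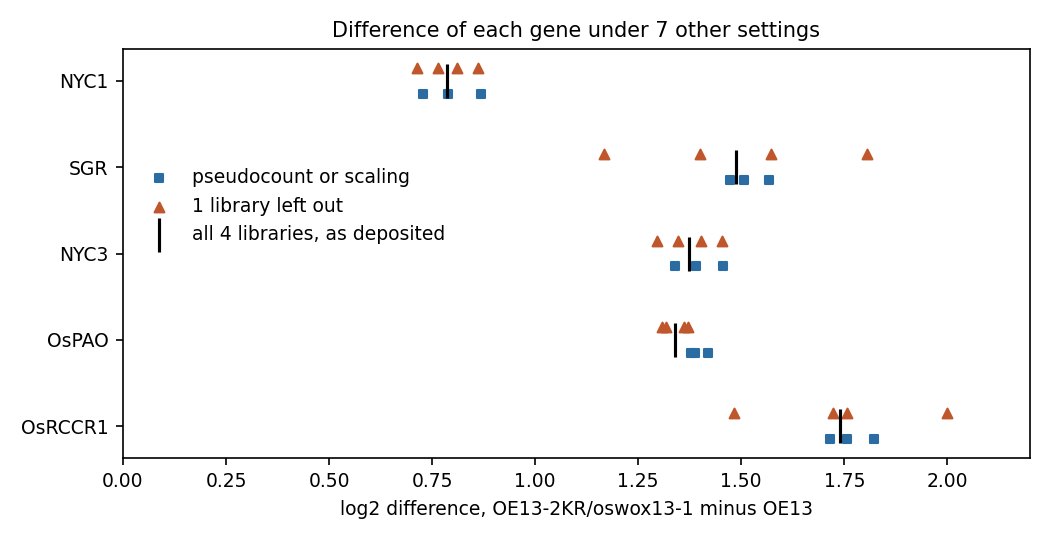
Difference between the lines on the log2 scale (x axis) for each of the 5 genes (rows). Black bars are the values from all 4 libraries as deposited, triangles leave out 1 library and squares change the pseudocount or the scaling; SGR and OsRCCR1 spread most, from 1.17 to 1.80 and from 1.48 to 2.00.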

How the data were processed

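Each FPKM value is the authors', 1 for every gene in every library, per the file headers. Tools named in the submitters' processing notes, without their roles, are HISAT2 2.2.1, featureCounts 2.0.0 and DESeq2 1.38.3, with IRGSP 1.0 as genome build. None is tied there to the FPKM. Gene positions come from the authors' table and are read as IRGSP 1.0. The molecule label says genomic DNA although an RNA extraction is described. The authors' lists of fold changes were not used here.

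Columns were matched to samples by library name, and groups came from titles. limma 3.58.1 (R 4.3.3, trended variance) was run on log2(FPKM + 1) over 20174 genes averaging 1 FPKM or more, adjusted by Benjamini-Hochberg, with 2 residual degrees of freedom. Fold changes on this scale understate low genes. An exact permutation test of 1 gene could not go below p = 0.333 in this design. The 5 genes and all lists were chosen with earlier results of these data known. Named beside the 5 were every tested gene of the breakdown list, the 2 largest positive and negative differences of each other list at a mean FPKM of at least 10, the nearest profiles, and, after their values were seen, OsFBK12, Os09g0433800, NAR2.1 and the untested pheophorbide a oxygenase relatives. Lists by description can hold neighbours of a pathway, such as the flowering gene GHD7 among the light-harvesting words (not tested, low). Tested examples are PSAH among the light-harvesting words and Os01g0631200, a siroheme gene by description, among the chlorophyll synthesis words.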

Additional observations from a re-analysis of the deposited data

How the results depend on the processing

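For the 5 breakdown genes 7 settings can move the size of the difference. Its direction did not turn, and could not when 1 library was left out or the pseudocount changed. With the libraries rescaled by their median ratio the difference of NYC1 was 0.87 and that of OsPAO 1.42. OsPAO was at 1.38 with a pseudocount of 0.1 FPKM and 1.39 under quantile normalisation. With 1 library left out, NYC1 ranged from 0.71 to 0.86, SGR from 1.17 to 1.80, NYC3 from 1.29 to 1.45, OsPAO from 1.31 to 1.37 and OsRCCR1 from 1.48 to 2.00. The number of genes passing limma's test as lower in OE13-2KR/oswox13-1, 1 as reported, was 2 under quantile normalisation, 0 without a filter on low values, 0 with any 1 library left out and 0 with a replicate block; none passed as higher in any setting. The genes of the 4 pathway lists gave 0 calls in every setting. At an unadjusted p under 0.05, 40.04% of all genes past it were higher as deposited and 52.8% under quantile normalisation (2125 higher and 1903 lower).

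With 2 libraries per line a replicate block cannot change a gene's difference (NYC1 0.79, SGR 1.49, NYC3 1.37, OsPAO 1.34, OsRCCR1 1.74), nor can the filter or the variance trend, so these say nothing of its stability. With the block 7 light-harvesting genes and 2 other breakdown genes, against 1 and 1 without it, were lower at an unadjusted p under 0.05. Same-numbered libraries deviated from their group means with a correlation of -0.09 over 20174 genes, so the numbers were not taken to pair them. That correlation is over all genes and cannot show whether a smaller set shifted alike in both lines. Of the 15 light-harvesting genes tested, 15 were lower in replicate 2 of OE13-2KR/oswox13-1 and 14 in replicate 2 of OE13. The other breakdown genes had a median of -0.10 with a mean FPKM of at least 5, which leaves out the low relatives. The chlorophyll synthesis median log2 difference ranged from -0.76 to 0.0723 with 1 library left out, above 0 only without OE13-2KR/oswox13-1 replicate 2. The median of all genes was 0.0336 under quantile normalisation. Depth limits are unknown, since no counts were among the files used.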
